A study of Mus musculus with 18 samples.

Results

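Lung RNA of mice given the medium dose of the 4PAH-Mix was set against lung RNA of mice given the low dose, by the dose code that opens each sample's title. These were 9 of the 18 mice of the series: 5 at the medium dose (mice 11 to 15) and 4 at the low dose (mice 6, 7, 9 and 10). The 4PAH-Mix holds 4 polycyclic aromatic hydrocarbons, benzo[a]pyrene (BaP), benz[a]anthracene, benzo[b]fluoranthene and chrysene, dissolved in olive oil. The low dose was 12.5 and the medium dose 25 mg BaP equivalents/kg-bw/day. All 9 animals were male Muta™Mouse, a transgenic strain on a BALB/C and DBA/2 background that carries a bacterial reporter gene for mutation assays, and were about 12 weeks old. They were gavaged once a day for 28 days and their lungs were taken 72 hours after the last dose. The 5 vehicle mice, given olive oil alone, and the 4 high-dose mice, given 50 mg BaP equivalents/kg-bw/day, lent their arrays to the estimate of the spread and to the choice of one set of probes. The question is what a step from the low to the medium dose adds.

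Each mouse had its own 2-colour array, with lung RNA in Cy5 and Universal Mouse Reference RNA, a pool of cell line RNA, in Cy3. A level is the log2 ratio of lung to reference after loess, and a difference is the medium-dose mean minus the low-dose mean on the log2 scale. Between 51.5% and 59.2% of the probes of the 9 arrays were well above background. The RNA was lung RNA by its markers: the surfactant gene Sftpc lay at 7.06 to 7.5 in the low-dose mice and at 6.27 to 7.42 in the medium-dose mice, and the club cell gene Scgb1a1 at 7.47 to 7.91 and 7.22 to 7.66. The 3 slides each held mice of both doses. Within a slide, low-dose arrays all sat in one column and medium-dose arrays in another, so column and dose cannot be told apart. Mice are separate animals, and p-values measure the spread between these mice.

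Polycyclic aromatic hydrocarbons bind the aryl hydrocarbon receptor (AHR), which induces cytochrome P450 enzymes, and these turn the compounds into metabolites that form bulky DNA adducts. Adducts stall polymerases and activate p53, the transcription factor that turns on Cdkn1a and other genes of cell cycle arrest, repair and cell death. The lung is a target tissue of these carcinogens, and its epithelium, endothelium and resident macrophages all carry AHR.

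Promoter windows of 300 bases around annotated start sites were taken from RefSeq (GRCm38.p6) for the genes on which the results turn. They are shown because they hold the letters of the factors named above. Cdkn1a encodes p21, the inhibitor of cyclin-dependent kinases, and the window of its upstream start site (chr17:29090729-29091028, plus strand) holds 2 matches to the p53 half-site, in capitals.
Cdkn1a: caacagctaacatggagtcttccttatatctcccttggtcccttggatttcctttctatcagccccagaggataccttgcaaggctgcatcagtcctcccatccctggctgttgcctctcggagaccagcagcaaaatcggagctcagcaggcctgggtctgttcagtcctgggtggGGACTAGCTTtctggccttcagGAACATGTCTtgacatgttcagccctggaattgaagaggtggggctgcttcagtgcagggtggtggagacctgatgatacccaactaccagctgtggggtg
Ahrr encodes the AHR repressor, a feedback inhibitor that AHR itself induces. Its window (chr13:74292282-74292581, minus strand) holds 3 matches to the AHR core GCGTG, searched on both strands and given in capitals.
Ahrr: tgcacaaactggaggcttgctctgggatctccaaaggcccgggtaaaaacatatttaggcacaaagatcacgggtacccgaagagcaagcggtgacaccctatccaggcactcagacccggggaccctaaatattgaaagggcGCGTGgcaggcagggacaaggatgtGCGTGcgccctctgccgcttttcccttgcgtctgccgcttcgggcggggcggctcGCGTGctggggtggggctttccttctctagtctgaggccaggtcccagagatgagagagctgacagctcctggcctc
A p53 half-site was found in 8.36% and the AHR core in 32.4% of all 32851 windows. Of the 18 genes of the p53 arrest and damage list with a window, 8 held a half-site in at least 1 window, against 9.55% of all 27025 genes. A match describes the letters only.

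Nothing passed the test between the doses. With limma, 0 of 55681 probes (0%) reached an adjusted p of 0.05 with a 1.5-fold change, and the lowest adjusted p was 0.232. At an unadjusted p under 0.05 there were 2764 probes (4.96%), 1485 higher (2.67%) and 1279 lower (2.3%) at the medium dose. With a 1.5-fold change as well, 59 probes (0.106%) remained, of which 43 were higher and 16 lower. Both shares belong to the whole array and say nothing of single probes. The count of 0 was the same with the scanner software's ratios (lowest adjusted p = 0.104), the authors' table (0.343) and the other ways of processing tried. The 1 exception came from leaving out mouse 13, when 1 probe, of Cdkn1a, passed with an adjusted p of 0.0443. The size of the differences was bounded here on the main ratios alone, from which no background was removed. For 53829 probes (96.7%), dim ones included, the 95% interval of the difference lay inside a 1.5-fold change in both directions. So it did for 26690 of the 28320 probes that were well above background in every mouse of a dose. With the scanner software's ratios, 1267 probes in place of 59 had an unadjusted limma p under 0.05 and a 1.5-fold change.

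**Figure D1:**
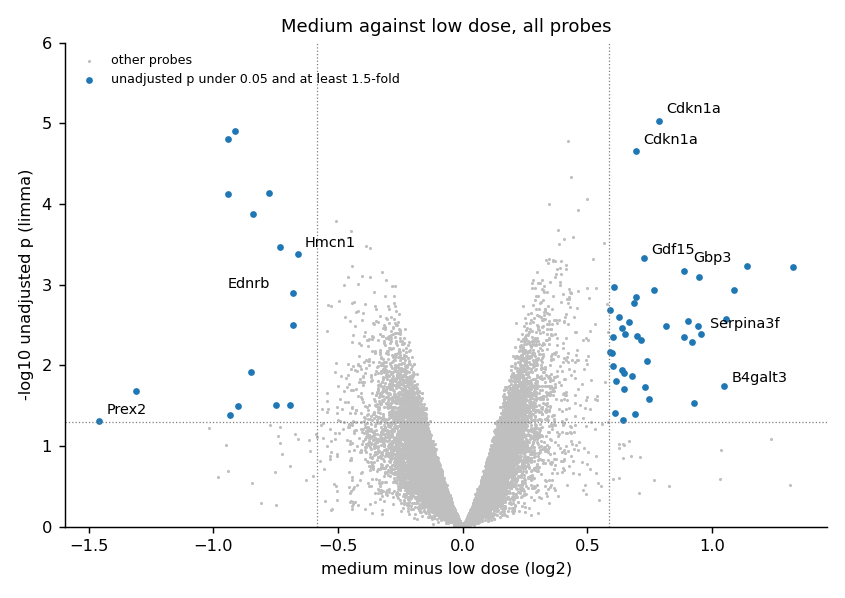
Each point is a probe, with the difference between the medium and the low dose (log2, x axis) against -log10 of limma's unadjusted p (y axis). Dotted lines mark a 1.5-fold change. Blue points are the 59 probes past both, and both Cdkn1a probes lie highest on the right.

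Cdkn1a stood closest to the threshold. Its brightest probe lay at 0.57, 0.61, 0.57 and 0.93 in low-dose mice 6, 7, 9 and 10 and at 1.27, 1.48, 1.03, 1.55 and 1.5 in medium-dose mice 11 to 15. The lowest medium-dose mouse was above the highest low-dose mouse. The difference was 0.69 ± 0.13 (SE), a 1.62-fold change with a 95% interval of 0.43 to 0.96 on the log2 scale (limma adjusted p = 0.245). The two-sided exact permutation test gave p = 0.0159, the smallest that 126 splits of 5 and 4 mice allow, and 0.111 after adjustment over the 7 single genes tested. On each slide the medium dose was higher, by 0.78, 0.72 and 0.57. A second Cdkn1a probe, which had the lowest adjusted p of the array (0.232), lay at 0.75, 0.64, 0.38 and 0.68 at the low and at 0.98 to 1.71 at the medium dose, a difference of 0.79 ± 0.14. Against the vehicle mice, which all comparisons with vehicle share, the brightest probe differed by 1.39, 2.09 and 2.47 in ascending order of dose.

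Gdf15, a secreted stress cytokine of the TGF-beta superfamily and a p53 target, showed a step in 4 of 5 mice. It lay at 0.15, 0.06, 0.31 and -0.18 at the low dose and at 1.13, 1.1, 0.78, 0.97 and 0.08 at the medium dose. Mouse 15 lay within the low-dose range and the other 4 above it. The difference was 0.73 ± 0.18 (limma adjusted p = 0.864, exact permutation p = 0.0476, adjusted 0.111). By slide it was 1.00, 0.56 and 0.26, the last from mouse 15 against mouse 10. Its differences from vehicle were 2.05, 2.78 and 2.88 across the doses.

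**Figure D2:**
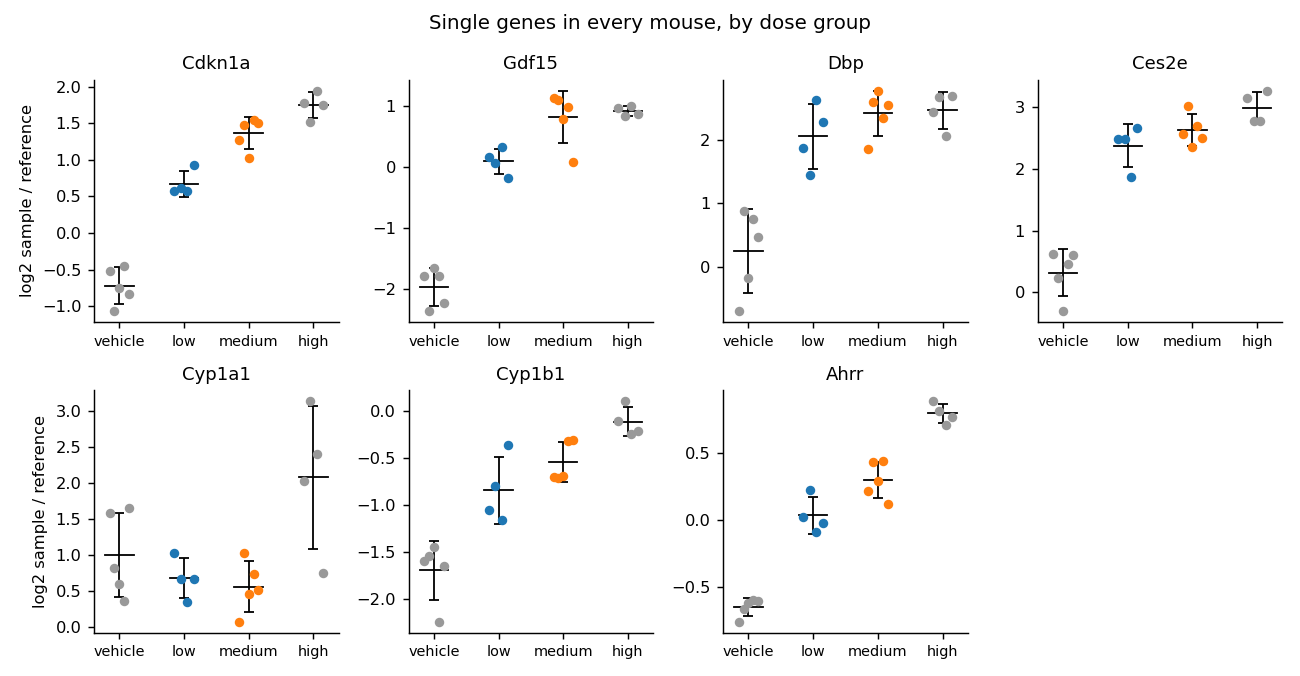
Each point is a mouse, with its log2 ratio to the reference (y axis) by dose group (x axis), bars giving the mean and SD of 5 vehicle, 4 low, 5 medium and 4 high-dose mice. Cdkn1a separates low from medium without overlap, and mouse 15 sits with the low-dose mice for Gdf15. Dbp, Ces2e, Cyp1a1, Cyp1b1 and Ahrr overlap between the 2 doses.

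The p53 arrest and damage list, Cdkn1a and Gdf15 included, mostly followed the same direction, its other genes with smaller differences. Of its 22 genes, 21 were higher at the medium dose, 0 passed the adjusted test, and 7 had an unadjusted p under 0.05, all higher. Over all 20660 genes, 3.43% had such a p and were higher, 2% had it and were lower, and 52% were higher. The list's median difference was 0.17 and that of all genes 0.005. In 4 of its genes the doses did not overlap, higher at the medium dose, against 0.978% of all genes (0.455% did not overlap the other way). Ccng1, which encodes cyclin G1, lay at -0.06 to 0.15 at the low and at 0.16 to 0.75 at the medium dose, a difference of 0.42 ± 0.13. Phlda3, an inhibitor of AKT signalling, lay at 1.1 to 1.31 and 1.41 to 1.81, a difference of 0.39 ± 0.10. Zmat3, an RNA-binding p53 target, lay at -0.98 to -0.70 and -0.60 to -0.24, a difference of 0.39 ± 0.10. Mdm2, the ubiquitin ligase that degrades p53, differed by 0.21 ± 0.08 with overlap of mouse 15. These 4 had limma adjusted p-values of 0.864 to 0.969. Of the list's repair genes, Xpc differed by 0.02 ± 0.07 and Ercc5 by -7.7e-05 ± 0.07, while others such as Ddb2 and Polk are not given here.

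The median over the list, as distance from the low-dose mean, was -0.05 to 0.06 in the low-dose mice and 0.08 to 0.26 in the medium-dose mice, lowest in mouse 15. Of the 12 p53 cell death genes, 9 were higher, with a median of 0.12. Trp53inp1, a p53 cofactor, lay at 1.07 to 1.38 at the low and at 1.5 to 1.77 at the medium dose, a difference of 0.35 ± 0.10 (limma adjusted p = 0.923), while Bbc3, which encodes the death effector PUMA, differed by -0.04 ± 0.10 and Bax, another, by 0.12 ± 0.21. Against vehicle, the arrest and damage list had medians of 0.40, 0.59 and 0.74 across the doses.

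A wider view came from probes that the high dose moved. Arrays of the vehicle and high-dose mice alone, fitted without the low and medium doses, called 222 probes higher (0.399%) and 456 lower (0.819%) at the high dose. Those arrays share no mouse and no slide column with the 9 described here, although they share the slides. Vehicle, low, medium and high-dose arrays sat in slide columns 1, 2, 3 and 4, so column order followed dose in both comparisons. The part of the column in the values below was not tested. Of the 222 higher probes, 199 (89.6%) were also higher at the medium than at the low dose, with a median difference of 0.22, and 77 had an unadjusted p under 0.05 in that direction and 0 in the other. Of the 456 lower probes, 425 (93.2%) were lower at the medium dose, with a median of -0.23, and 129 had an unadjusted p under 0.05 in that direction and 0 in the other. Over all probes 50.1% were higher and the median was below 0.001. None of these probes passed the adjusted test between low and medium.

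Mouse by mouse, the median of the 222 probes relative to the low-dose mean was 0.02, 0.01, 0.00 and -0.02 in mice 6, 7, 9 and 10 and 0.21, 0.34, 0.14, 0.27 and 0.18 in mice 11 to 15. The doses did not overlap. For the 456 probes it was 0.13, 0.04, -0.02 and -0.13 at the low dose and -0.33, -0.24, -0.06, -0.20 and -0.20 at the medium dose, so that mouse 13 overlapped mouse 10. By slide the median difference of the higher set was 0.25, 0.21 and 0.16, and that of the lower set -0.38, -0.11 and -0.10. The p53 lists supplied 21 of the 222 probes, all 21 higher, with a median of 0.24. Without them the remaining 201 had a median of 0.21, and 88.6% of them were higher. The clock output list supplied 10 of the 222.

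**Figure D3:**
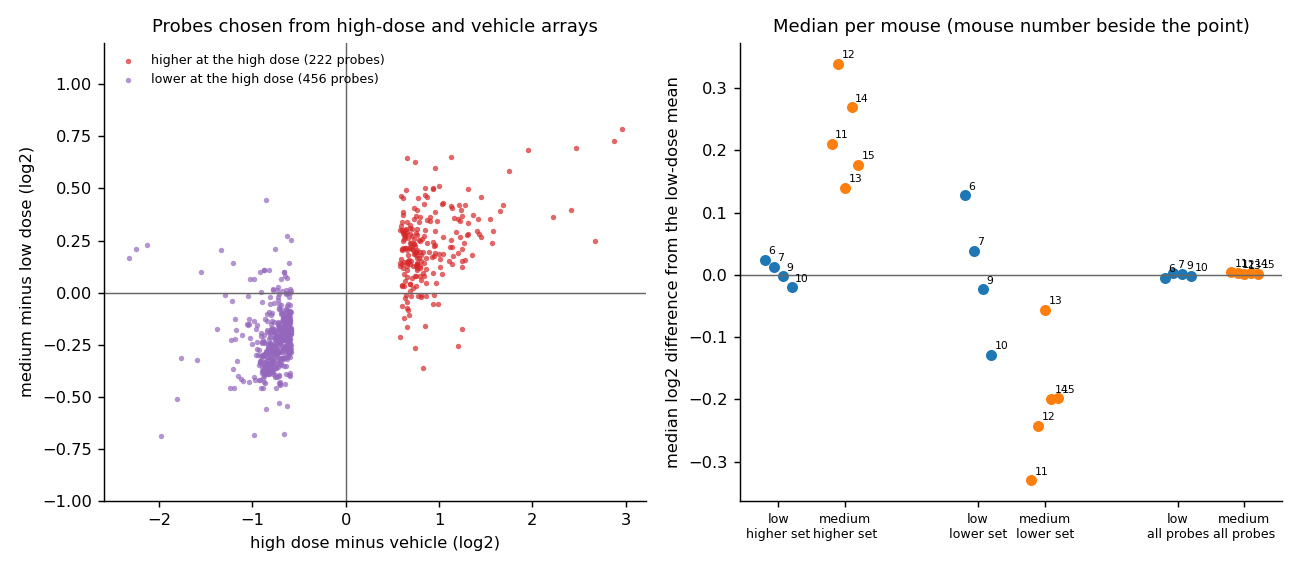
Left, each point is a probe called at the high dose, with its high-dose difference from vehicle (log2, x axis) against its medium minus low difference (log2, y axis). Right, each point is a mouse, with the median over the 222 higher, 456 lower or all probes as the log2 difference from the low-dose mean (y axis), by dose and set (x axis). The higher set separates the doses, the lower set nearly so, and all probes lie at 0.

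Among those probes the largest medium minus low differences upwards, besides Cdkn1a and Gdf15, belonged to Mmrn2 and Wfdc12. Mmrn2, multimerin 2 of the endothelial extracellular matrix, lay at 6.02, 5.83, 6.12 and 6.17 at the low and at 6.74, 6.95, 6.63, 7.06 and 6.22 at the medium dose. No medium-dose mouse fell within the low-dose range, though mouse 15 lay only 0.06 above mouse 10. The difference was 0.69 ± 0.19 (limma adjusted p = 0.902), and the differences from vehicle were 0.88, 1.57 and 1.96. Bulk lung RNA does not tell fewer cells of a type from less RNA per cell. Of the 19 genes of the angiogenesis and endothelium list, Mmrn2 included, 7 were higher and 12 lower, with a median of -0.07. Pecam1, an endothelial adhesion molecule also called higher at the high dose, differed by 0.24 ± 0.12. Wfdc12, a secreted whey acidic protein family member, differed by 0.65 ± 0.24 with overlap of the doses.

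Downwards, the largest were Hspa1a, Ednrb, Fibin, an unnamed probe (A_30_P01020677) and 1 probe of Epb41. Ednrb, the endothelin B receptor of endothelium, lay at 3.28, 3.26, 3.26 and 2.71 at the low and at 2.32, 2.90, 2.82, 2.08 and 2.11 at the medium dose. Mouse 10 fell among the medium-dose mice and the other low-dose mice lay above them all. The difference was -0.68 ± 0.18 (limma adjusted p = 0.866), within slides -0.66, -0.81 and -0.60, and a second probe gave -0.43. With the scanner software's ratios it was -1.36. Differences from vehicle were 0.01, -0.68 and -0.98, so that the low dose lay at the vehicle level. Fibin, a secreted factor, differed by -0.68 ± 0.20 with overlap. Hspa1a, the inducible heat shock protein HSP70, differed by -0.69 ± 0.49, with low-dose mouse 6 at 2.62 and every other mouse of both doses between -0.14 and 1.07. Without mouse 6 the Hspa1a difference was -0.13. The Epb41 probe differed by -0.54 ± 0.17, but the gene's other probes by -0.14 and -0.13. It was -0.92 with the scanner software's ratios and -0.05 with Cy5 alone. The unnamed probe differed by -0.56 ± 0.27.

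Some genes had a 1.5-fold difference and no overlap of the doses on a brightest probe well above background in every mouse of a dose. They numbered 8 higher and 1 lower, and none of them passed. Of all 20660 genes, whatever the size of the difference, 0.978% did not overlap with the medium dose higher and 0.455% with it lower. The 1 lower gene was Hmcn1, which encodes hemicentin 1, a basement membrane protein. It lay at 3.04, 2.56, 2.91 and 2.35 at the low and at 2.05, 2.21, 2.29, 1.93 and 1.79 at the medium dose. The difference was -0.66 ± 0.16 (limma adjusted p = 0.864), within slides -0.67, -0.80 and -0.56, and a second probe gave -0.39. Against vehicle the 3 doses were at -0.10, -0.76 and -0.33. Higher were Cdkn1a and Mmrn2, given above, Ltc4s, Xdh, Serpina3f, and the 3 interferon-induced genes Gbp2, Gbp3 and Igtp. Ltc4s, leukotriene C4 synthase of mast cells and macrophages, lay at 1.98 to 2.47 and at 2.47 to 3.39, a difference of 0.63 ± 0.18, with mice 7 and 13 next to each other at 2.47. Xdh, xanthine dehydrogenase of purine breakdown, lay at -0.28 to 0.32 and 0.48 to 0.96, a difference of 0.67 ± 0.20. Serpina3f, a serine protease inhibitor with near-identical neighbours, lay at 1.02 to 1.72 and 1.94 to 3.25, a difference of 0.95 ± 0.30. Limma's adjusted p was between 0.864 and 0.923 for these genes other than Cdkn1a.

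The interferon-induced genes were followed over their whole families, which were picked by symbol after values of some members had been seen. Guanylate-binding proteins and immunity-related GTPases coat and disrupt the vacuoles of intracellular pathogens and are induced by interferon-gamma. Of the 21 genes of the guanylate-binding, immunity-related and giant GTPase families with a probe, 21 were higher at the medium dose, with a median of 0.50, and 0 passed (lowest limma adjusted p = 0.864). Probes of 19 of them were well above background in every mouse of a dose. Those of Gbp2b (0.05) and Irgc1 (0.04) were so in no mouse of either dose. An unadjusted p under 0.05 was reached by 11, all higher (3.43% of all genes), and 4 did not overlap between doses (0.978% of all genes). Since the families were picked with values in view, these counts are a description. Paralogs in these families are alike in sequence, so that probes may cross-hybridize and the 21 are not separate measurements.

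Gbp3 lay at 0.42, 0.33, 0.32 and 0.46 at the low and at 1.46, 0.91, 0.86, 1.00 and 2.12 at the medium dose, a difference of 0.89 ± 0.22. Igtp lay at 0.57, 0.52, 0.40 and 0.39 and at 1.65, 1.05, 0.90, 0.86 and 2.33, a difference of 0.89 ± 0.28. Gbp2 lay at 2.06, 2.10, 1.96 and 2.29 and at 2.81, 2.38, 2.30, 2.44 and 3.57, a difference of 0.60 ± 0.19. In each of the 3 genes mouse 15 was highest and mouse 11 next, and the other 3 medium-dose mice lay closer to the low-dose range. Mouse 15 was the highest medium-dose mouse in 16 of the 21 genes. As a median over the 21, relative to the low-dose mean, the low-dose mice lay at -0.11 to 0.09 and medium-dose mice 11 to 15 at 0.72, 0.27, 0.16, 0.05 and 1.2. Without mouse 15 the families' median difference was 0.25. Vehicle mice lay at -0.06 to 0.40 and high-dose mice at -0.02 to 0.33 on this scale, and the differences from vehicle had medians of -0.13, 0.27 and -0.01 across the doses.

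Of the 15 genes of the interferon-stimulated list with a probe, which includes Gbp2 and Gbp3, 13 were higher, with a median of 0.27 and 3 at an unadjusted p under 0.05. With the row of an array on its slide as a block, that median was 0.07. Ifit1, an RNA-binding antiviral effector, differed by 0.07 ± 0.39, and Isg15, a ubiquitin-like modifier, by 0.09 ± 0.41. H2-DMa, a peptide exchange factor of MHC class II, differed by 0.51 ± 0.14 (limma adjusted p = 0.899), with 4 of the 7 class II genes higher. The class II list's median was 0.18 here but -0.11 with the scanner software's ratios.

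Promoter windows of these GTPase genes shared a motif. The interferon-stimulated response element core GAAANNGAA, searched on both strands, stood in the windows of 11 of the 13 family genes with a window, against 9.76% of all genes, and the gamma-activated site TTCNNNGAA in 7 of the 13, against 9.55%. Stretches around the core are given for the 7 of them with the largest differences, with the core or its reverse complement in capitals and the positions following (GRCm38.p6).
Gm12250: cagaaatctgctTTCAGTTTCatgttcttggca
Igtp: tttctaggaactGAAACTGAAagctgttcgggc
Gbp3: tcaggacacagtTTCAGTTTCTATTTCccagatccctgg
Gbp5: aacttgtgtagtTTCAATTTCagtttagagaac
Tgtp2: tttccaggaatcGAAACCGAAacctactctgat
Irgm2: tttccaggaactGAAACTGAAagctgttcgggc
Gbp2: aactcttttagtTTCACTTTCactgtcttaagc
These lie at chr11:58183786-58183818, chr11:58199510-58199542, chr3:142559988-142560026, chr3:142496758-142496790, chr11:49064262-49064294, chr11:58214901-58214933 and chr3:142620593-142620625, on the plus strand except that of Tgtp2. A core in the window is a description of the sequence, and no binding was measured.

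**Figure D4:**
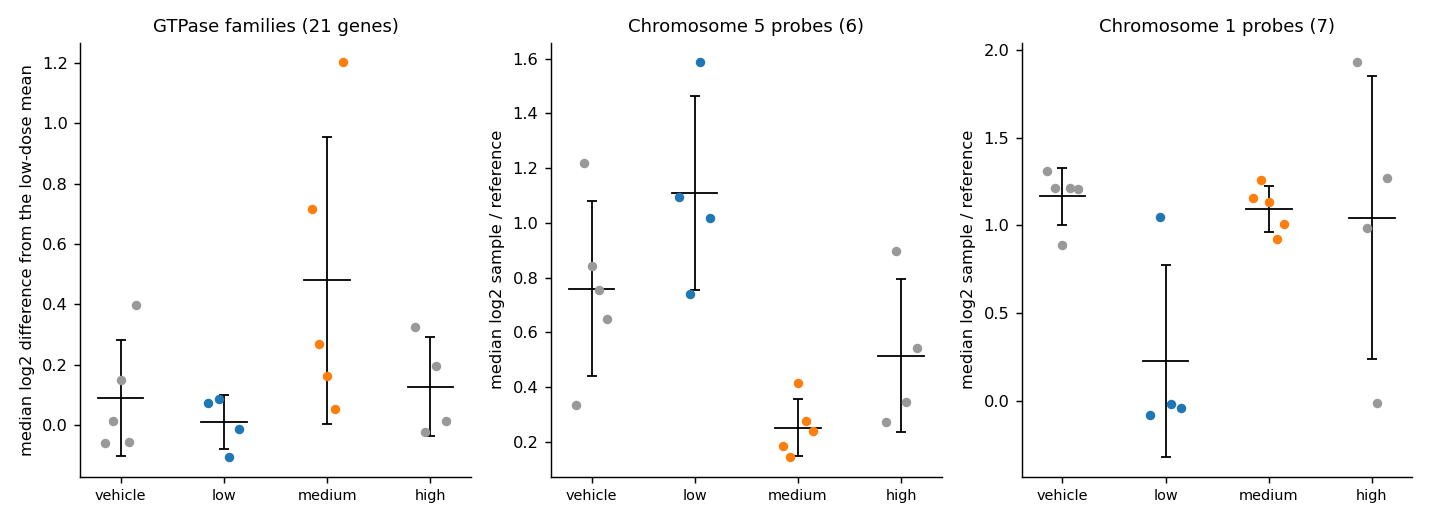
Each point is a mouse by dose group (x axis), bars giving the mean and SD. Left, the median over 21 GTPase family genes as the log2 difference from the low-dose mean, with mouse 15 at 1.2 above the rest. Middle and right, the median log2 ratio to the reference over the 6 chromosome 5 probes, where low and medium do not overlap, and over the 7 chromosome 1 probes, where 3 low-dose mice and 1 high-dose mouse lie near 0. Both sets of probes were picked by their difference between low and medium.

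Besides named genes, probes that the array assigns to unnamed transcribed intervals stood among the 59. Those of the 2 stretches below were picked by their difference between these same mice. Their separation of the doses largely follows from that choice and is a description. On chromosome 5, 6 probes of 3 intervals (chr5:14943275-14944205, chr5:15033568-15033987 and chr5:15146475-15170100, mm9, forward strand) were lower at the medium dose by 0.73 to 0.94, and in all 6 the doses did not overlap. Their median level was 1.09, 0.74, 1.59 and 1.02 in mice 6, 7, 9 and 10 and 0.18, 0.14, 0.41, 0.28 and 0.24 in mice 11 to 15. The other 27 probes of the same stretch differed by -0.49 to 0.15. Of all named genes, 0.455% did not overlap with the medium dose lower, a share not taken over unnamed probes. Vehicle mice lay at 0.34 to 1.22 and high-dose mice at 0.27 to 0.90, spanning the gap between the doses. Limma's lowest adjusted p in the stretch was 0.232.

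On chromosome 1, 7 probes of 4 intervals between 23332602 and 23341144 (mm9, forward strand) were higher by 0.64 to 1.32 at the medium dose. The median level was -0.08, -0.02 and -0.04 in low-dose mice 6, 9 and 10 but 1.05 in low-dose mouse 7, which lay among the medium-dose mice at 0.92 to 1.26. All 5 vehicle mice lay at 0.89 to 1.31, and high-dose mice 16, 17, 18 and 20 at 1.93, 0.98, -0.01 and 1.27. The low level was thus found in 3 low-dose mice and in 1 high-dose mouse. Each of the 7 probes was well above background in all 5 medium-dose mice. In the low-dose mice each was so in only 1, in 3 or in all 4 of them. The lowest adjusted p was 0.864, and no gene is named for these intervals here.

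Of 8 AHR targets, 4 were higher and 4 lower, with a median of 0.0016. Cyp1a1, the classic AHR target that oxidises BaP, lay at 1.03, 0.67, 0.35 and 0.67 at the low and at 0.07, 1.02, 0.46, 0.74 and 0.51 at the medium dose. It was well above background in 4 of 4 low-dose but in 2 of 5 medium-dose mice. The difference was -0.12 ± 0.33 (exact permutation p = 0.619), and it ran from -0.96 with the scanner software's ratios to 0.0047 without mouse 11. Ahrr lay at 0.02, 0.23, -0.09 and -0.02 and at 0.22, 0.43, 0.29, 0.44 and 0.12, with mice 11 and 15 within the low-dose range. Its difference was 0.27 ± 0.08 (limma adjusted p = 0.923, exact permutation p = 0.0476, adjusted 0.111), but its second probe, not well above background in any of the 9 mice, gave -0.09. With the scanner software's ratios the difference was 0.48. Cyp1b1, a second P450 that oxidises these compounds, differed by 0.30 ± 0.16 (exact permutation p = 0.127). In the 4 slide rows that held a mouse of each dose, the medium-dose mouse was higher in all 4 for Ahrr (by 0.20, 0.21, 0.53 and 0.14) and for Cyp1b1 (by 0.35, 0.08, 0.85 and 0.05), and in 2 of 4 for Cyp1a1. Differences from vehicle across the doses were 0.69, 0.95 and 1.45 for Ahrr, 0.85, 1.15 and 1.58 for Cyp1b1, and -0.32, -0.44 and 1.07 for Cyp1a1.

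The circadian genes differed little between these doses relative to their distance from vehicle. Dbp, a clock output transcription factor, lay at 1.87, 1.44, 2.62 and 2.28 at the low and at 1.85, 2.60, 2.76, 2.34 and 2.54 at the medium dose. The difference was 0.37 ± 0.27 with overlap (exact permutation p = 0.254), against differences from vehicle of 1.81 and 2.17. Of the 15 clock repressors and output genes, 10 were higher, with a median of 0.09. Ces2e, a carboxylesterase, differed by 0.25 ± 0.18 (exact permutation p = 0.302), with 2.06 and 2.30 against vehicle. The 95% interval was -0.20 to 0.93 for Dbp and -0.13 to 0.63 for Ces2e, so a 1.5-fold difference lies within both.

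**Figure D5:**
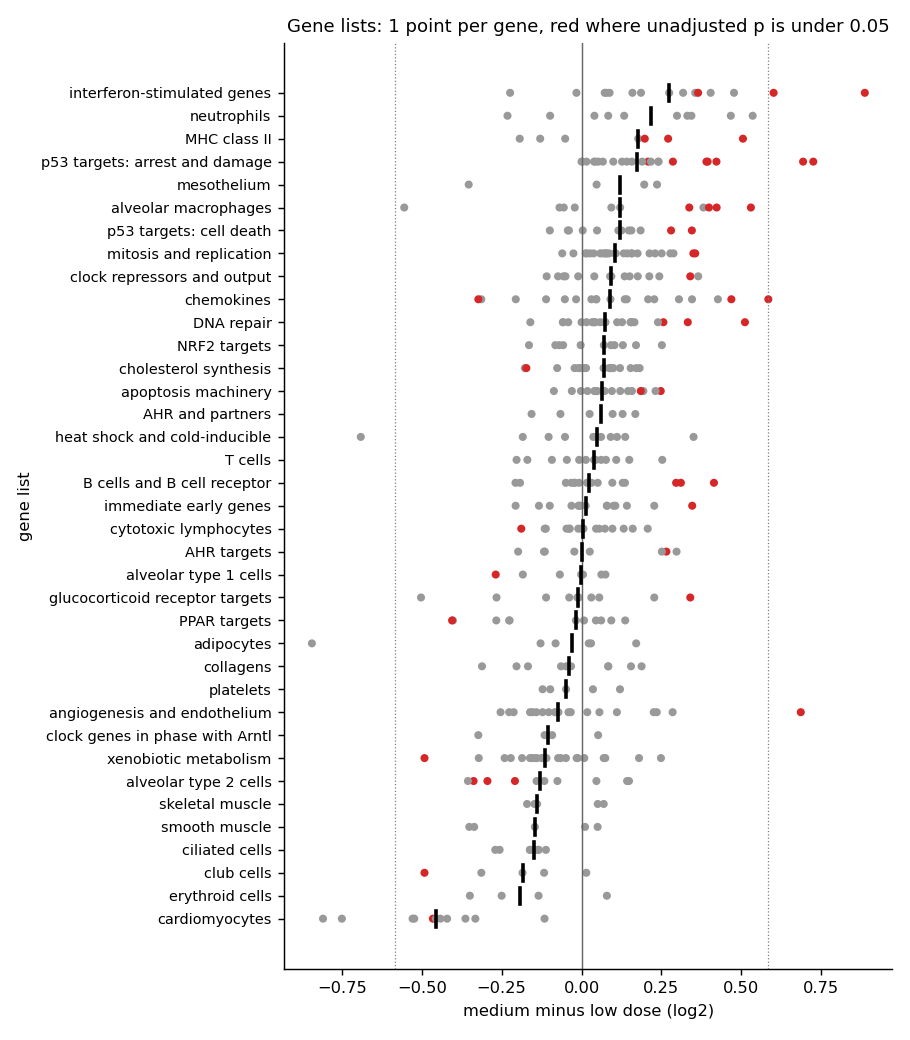
Each point is a gene of a list (rows), with its medium minus low difference (log2, x axis), red where limma's unadjusted p was under 0.05. Black bars are list medians and dotted lines a 1.5-fold change. The p53 arrest list lies almost wholly above 0, and the cardiomyocyte list lies below it with a median of -0.46.

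Proliferation and repair genes were mostly slightly higher. Of 26 mitosis and replication genes, 24 were higher, with a median of 0.11, where 52% of all genes were higher. Their list medians overlapped between doses, at -0.11 to 0.13 in low-dose and 0.01 to 0.38 in medium-dose mice. Mouse 13 alone lay above the low-dose range. The replicative helicase subunit Mcm2 (0.36 ± 0.12) and the licensing factor Cdt1 (0.35 ± 0.13) had an unadjusted p under 0.05. In DNA repair, 19 of 24 were higher, with a median of 0.07. The translesion polymerase Rev1 lay at -0.73 to -0.29 and at -0.26 to -0.04, a difference of 0.26 ± 0.09, and Mgmt, which removes alkyl groups from guanine, differed by 0.51 ± 0.23. In these lists 0 genes passed the adjusted test.

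On the main ratios the epithelial lists had medians from -0.18 to -0.0013. Club cell genes were lower in 4 of 5 cases, with a median of -0.18. Their list medians overlapped widely, at -1.24 to 1.39 in the low-dose and -1.67 to 1.61 in the medium-dose mice. Of 7 alveolar type 1 genes, 3 were higher and 4 lower, with a median of -0.0013. Of 10 alveolar type 2 genes, 7 were lower, with a median of -0.13, and the surfactant genes Sftpb (-0.34 ± 0.12), Sftpa1 (-0.29 ± 0.14) and Sftpc (-0.36 ± 0.19) were lowest in mouse 15. The sign of that median turned to 0.07 with scaling between arrays and to 0.10 with Cy5 alone. All 9 ciliated cell genes were lower, with a median of -0.15, and none had an unadjusted p under 0.05. Of the xenobiotic metabolism genes, 18 of 23 were lower, with a median of -0.11 (0.0066 with scaling between arrays). Cyp2f2, a P450 of club cells, differed by -0.49 ± 0.21, with mouse 15 at 5.32 and the other 8 mice at 6.16 to 6.75.

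Markers of heart muscle varied widely between mice. Heart muscle genes, 11 of 11 lower with a median of -0.46, ran as list medians from -1.71 to 1.96 in the low-dose and from -1.90 to 0.48 in the medium-dose mice. Myh6, cardiac myosin, was at 6.42 in mouse 6 and at 0.49 in mouse 14. RNA was taken from random sections of lung. The source of the heart muscle RNA, and its part in the results above, was not tested. Resident macrophage genes were higher in 7 of 11 cases, with a median of 0.12. Atp6v0d2, a proton pump subunit of alveolar macrophages, lay at 1.93 to 2.29 and at 2.27 to 3.16, a difference of 0.53 ± 0.16 with overlap of mouse 13, and the surface lectin Siglecf differed by 0.34 ± 0.16, while Marco, a scavenger receptor, differed by 0.38 ± 0.46 and the lectin Chil3 by -0.56 ± 0.41. Neutrophil genes were higher in 8 of 10 cases, with a median of 0.22 and 0 at an unadjusted p under 0.05.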

How the data were processed

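Per the labels, total lung RNA of each mouse (Cy5) was hybridized with Universal Mouse Reference RNA (Cy3). The authors deposited, for each array, median signal intensities of both channels with neither background subtraction nor normalization, and the scanner software's log10 ratio (Feature Extraction 11.0.1.1, per the file headers). They also deposited a table of normalized log2 ratios. Following the study's methods, log2 ratios of Cy5 over Cy3 were taken on these intensities with no background removed, and normalized by loess within each array (R 4.3.3, limma 3.58.1). Outlier and control spots had no weight and were left out, and spots of a probe were averaged.

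All 18 arrays were fitted in limma, medium minus low was the contrast, and Benjamini-Hochberg adjustment ran over 55681 probes. The study's MAANOVA was not run. The fit was tested on simulated data. Mice are separate animals, and mouse numbers are not shared between doses. A RefSeq table (GRCm38) named 27235 probes, and the brightest probe stands for a gene. Probe intervals are in the mm9 build of the file headers.

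Named were genes with a 1.5-fold difference and no overlap between doses (up to 10 each way), 7 single genes, members of 37 gene lists, and the 5 largest rises and falls among probes called at the high dose. Genes named for no overlap also had to be well above background in every mouse of a dose. The members, lists and rules were chosen with earlier results of these data known. The probes of unnamed intervals, the GTPase families and Plac8, Trem2, Zbp1, Nlrc5 and Il18bp were named after their values were seen. Alternatives were normexp (offset 50), the scanner ratios, the authors' table, median centring, scaling, Aquantile, Cy5 alone, the slide as a block, a filter on dim probes, fewer arrays in the fit, no fold limit, averaging a gene's probes, all 18 arrays choosing the high-dose probes and each mouse left out. Leaving each mouse out of the GTPase median, and the slide row as a block, were added after seeing the data. An array has no read depth. Its signal over background and the number of arrays limit the precision.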

Additional observations from a re-analysis of the deposited data

Results flagged for a closer look

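In 124 groups of 4 or 5 mice checked, 4 held a mouse far from the rest by Dixon's ratio (gap over range), where chance gives about 1 in 20. Cdkn1a on its brightest probe had low-dose mouse 10 at 0.93 with the other 3 at 0.57 to 0.61, a ratio of 0.889. Ednrb had low-dose mouse 10 at 2.71 with the others at 3.26 to 3.28, a ratio of 0.955. In both genes mouse 10 was the low-dose mouse nearest to the medium dose. The unnamed probe A_30_P01020677 had medium-dose mouse 13 at -0.997 with the others at -2.43 to -2.06, a ratio of 0.742. The mesothelium list had medium-dose mouse 13 at 0.80 with the others at -0.26 to 0.00, a ratio of 0.751.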

How the results depend on the processing

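The count of called probes was 0 in every setting except without mouse 13, and ranged from 0 to 1 over the mice left out. The count at an unadjusted p under 0.05 was 729 with median centring and 1668 with dim probes filtered out, where fewer probes were tested, and 2091 to 3906 with a mouse left out. With a 1.5-fold change as well it was 1267 with the scanner software's ratios, and 57 to 100 with a mouse left out (95 without mouse 7, 100 without mouse 9, 92 without mouse 10 and 90 without mouse 13). The cause was not tested. Median centring in place of loess moved the median of the higher set to 0.31 (46 probes) and of the lower set to -0.39 (5 probes). In the other settings these medians were 0.19 to 0.24 and -0.27 to -0.19. Single probes followed through the settings numbered 22. They were those of genes named for no overlap, of the 7 single genes and of the 5 largest rises and falls. Among these, Cyp1a1 alone changed direction, to 0.0047 without mouse 11 (-0.23 to 0.0047 over the mice left out). Other members of the gene lists were not followed singly. The second Cdkn1a probe was the 1 call without mouse 13. Medians of 14 list and setting pairs moved beyond the mouse-to-mouse spread, and 772 did not, with the GTPase families counted as a list. Slide as a block changed no call, nor did slide and row as a block, added after seeing the data (lowest adjusted p = 0.312, 3578 probes at an unadjusted p under 0.05). Mouse numbers are not shared between doses, so no replicate number pairs the mice. Leaving out 1 mouse moved Dbp to 0.16 (mouse 7) and 0.56 (mouse 9), Ces2e to 0.15 (mouse 12) and 0.08 (mouse 9), Cyp1b1 to 0.19 (mouse 9) and 0.46 (mouse 10), Hspa1a to -1.05 (mouse 7) and Gbp2 to 0.38 (mouse 15). Ces2e was 0.39 with Cy5 alone.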

Other observations

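The 59 probes (0.106% of all) with a 1.5-fold difference at an unadjusted p under 0.05 held 5 further genes that are given here as single values, picked after their values were seen. Trem2, a lipid receptor of macrophages, differed by 0.61 ± 0.16, and Plac8, a cysteine-rich protein of leukocytes, by 0.59 ± 0.17. Nlrc5, the transactivator of MHC class I genes, differed by 0.64 ± 0.19, Il18bp, the decoy receptor of interleukin 18, by 0.65 ± 0.20, and Zbp1, a sensor of Z-form nucleic acids, by 0.59 ± 0.20 and 0.60 ± 0.21 on its 2 probes. None passed limma's adjusted test (adjusted p = 0.864 to 0.969). Of the immune cell lists, neutrophils and T cells had 0 genes at an unadjusted p under 0.05.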
